A study of Homo sapiens with 18 samples.

Results

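The genes described here encode the proteasome, its activators and the factors that assemble it. They were chosen by name, as entries whose symbol begins with PSMA, PSMB, PSMC, PSMD, PSME, PSMF or PSMG and a number, without PSMB8 and PSMB9, and with a mean of at least 1 TPM, the deposited measure of transcript abundance corrected for length, over all libraries. Of 49 names that match, 45 were members, of 19744 genes in the table. PSMB8 and PSMB9 were left out by the rule, and the 2 others fell under the minimum: PSMA8, the alpha subunit of testis, was listed at 0, and PSMB11, the beta subunit of the thymus, had a mean of 0.0101 TPM. The lowest member was PSMB10, at a mean of 27.0 TPM, so no gene lay near the minimum. One member, PSMC3IP, matches by name but encodes a meiotic recombination factor, so counts below are over the other 44 genes: 14 core subunits, PSMB10, 17 regulatory particle subunits, 4 activators, 1 inhibitor and 7 assembly chaperones.

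The proteasome degrades proteins tagged with ubiquitin. Its core particle is a barrel of alpha and beta rings with the protease sites of PSMB5, PSMB6 and PSMB7 inside, and the regulatory particle on its ends has a base of ATPases (PSMC) that unfold the substrate and a lid (PSMD) that carries the deubiquitinase PSMD14. PSMB8, PSMB9 and PSMB10 replace the constitutive catalytic subunits in the immunoproteasome, which interferon-gamma induces. Proteasome genes are known to be transcribed together, through the factor NFE2L1 when proteasome activity falls short and, in oxidative stress, through NFE2L2.

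All cells were of the established line NCI-H211, a small cell lung cancer line with tuft cell features, and every group carried Cas9. One stable line had an empty vector (EV), another a POU2F3 cDNA that the guide cannot cut (WT), and the third this cDNA with the L191A change. Each line received lentiviral sgPOU2F3, which targets the endogenous gene of the tuft cell transcription factor POU2F3, or the control guide sgRosa, in 3 infections, and RNA was collected on day 5 from cultures that were nearly all positive for the virus's reporter. This made 6 groups of 3 poly(A) libraries. Neither the promoter of the cDNAs nor whether a line is 1 clone is given in the sources used here. Since the replicates of a group are infections of 1 line, p-values measure the spread between infections only. POU2F3 itself was at 682, 654 and 853 TPM in EV sgRosa and at 253, 318 and 274 TPM in EV sgPOU2F3. In the cDNA lines the table does not separate the endogenous gene from the cDNA: WT libraries were at 1049 to 1881 TPM and L191A libraries at 621 to 1053 TPM, apart from L191A sgRosa replicate 1 at 142 TPM.

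Values below are TPM divided by the library's median-ratio size factor (scaled TPM), and changes are log2(scaled TPM + 1) differences from limma with their SE. A gene was called at an adjusted p under 0.05 (limma, Benjamini-Hochberg over the 13067 genes tested). Read depth is unknown. A pair of libraries, L191A sgRosa replicate 1 and WT sgPOU2F3 replicate 1, had low size factors (0.411 and 0.719, against 0.966 to 1.36 elsewhere), a high share of TPM in ribosomal protein genes (37.6% and 32.4%, against 15.6% to 26.2%) and a falling level with transcript length (slopes of −0.40 and −0.14 per doubling, against −0.06 to 0.14). Proteasome transcripts are short, with a median length of 1119.5 nt against 1812 nt for all tested genes. All comparisons are therefore given with 18 libraries and with the 16 that remain without the skewed pair. The 12 tuft markers summed to 880 to 5572 TPM in a library, of which ALOX5AP was under 0.5 TPM in every one, and the 7 lymphoid and myeloid markers summed to 1.85 to 10.5 TPM, with CD3E, MS4A1 and CSF1R among those under 0.5 TPM in every library, as were all 4 endothelial markers.

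In EV cells the proteasome genes were higher after sgPOU2F3 than after sgRosa. Of the 44, 42 had a positive change, with a median of 0.60 against −0.004 for all genes tested, and the changes ran from −0.15 (PSMD10) to 1.32 (PSMB10). With 18 libraries 11 rose and 0 fell, where 12.6% of all genes rose and 13.8% fell. With 16 libraries 36 rose and 0 fell, where 27.8% of all genes rose and 27.4% fell. The changes themselves are the same in both fits, since neither skewed library is of this line, and only the shared estimate of the spread differs. The genes' summed share of all TPM was 1.04%, 1.06% and 0.891% in the 3 EV sgRosa libraries and 1.44%, 1.26% and 1.38% in the 3 EV sgPOU2F3 libraries, so these groups did not overlap. Leaving out EV sgRosa replicate 3 or EV sgPOU2F3 replicate 1 from the 18 libraries left 7 calls. Tuft markers moved the other way in the same comparison: 9 of 11 tested fell with 18 libraries and all 11 with 16, and their sum went from 3662 to 4604 TPM in EV sgRosa to 1095 to 1371 TPM in EV sgPOU2F3; their part in the result was not tested. Fibroblast markers summed to 8.53 to 10.8 TPM in EV sgRosa and 18.2 to 22.8 TPM in EV sgPOU2F3, with 2 of 5 tested higher and 2 lower in both fits, and neuroendocrine markers to 60.3 to 64.7 and 41.6 to 51.5 TPM, with 0 of 3 called with 18 libraries and 1 lower with 16; their part was not tested either. In bulk RNA, fewer cells with a transcript and less of it per cell cannot be told apart.

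**Figure D1:**
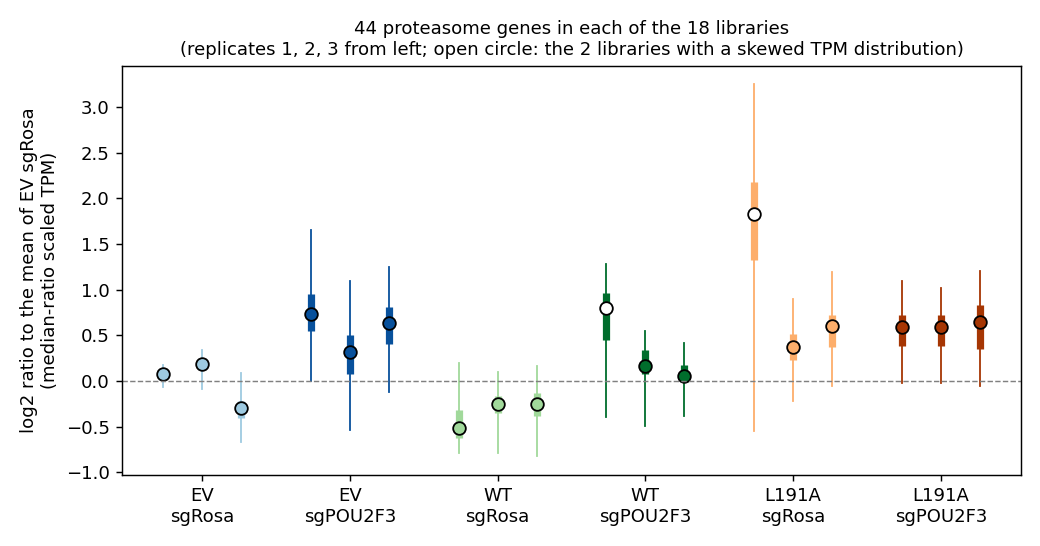
Level of the 44 genes in each library relative to the mean of EV sgRosa, as a log2 ratio of scaled TPM (circle: median over genes; thick line: interquartile range of the genes; thin line: full range; open circle: skewed library). The medians are 0.73, 0.32 and 0.64 in EV sgPOU2F3 and −0.52, −0.25 and −0.26 in WT sgRosa, and the skewed L191A sgRosa replicate 1 stands highest at 1.83.

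Within the EV groups the libraries were spread. EV sgRosa replicate 3 stood lowest, with a median log2 ratio of −0.29 to its group's mean, and 1 of 44 genes was above that mean. EV sgPOU2F3 replicate 2 had the smallest rise, with a median of 0.32 and 39 of 44 genes above. The slope of level on transcript length was the highest of each group in these 2 libraries: it was 0.038, 0.011 and 0.114 in EV sgRosa and −0.062, 0.061 and −0.028 in EV sgPOU2F3. With each library's length trend removed, 16 genes rose with 18 libraries and 35 with 16, and the median change was 0.55 in each. The result was thus of similar size with the length trend removed.

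**Figure D2:**
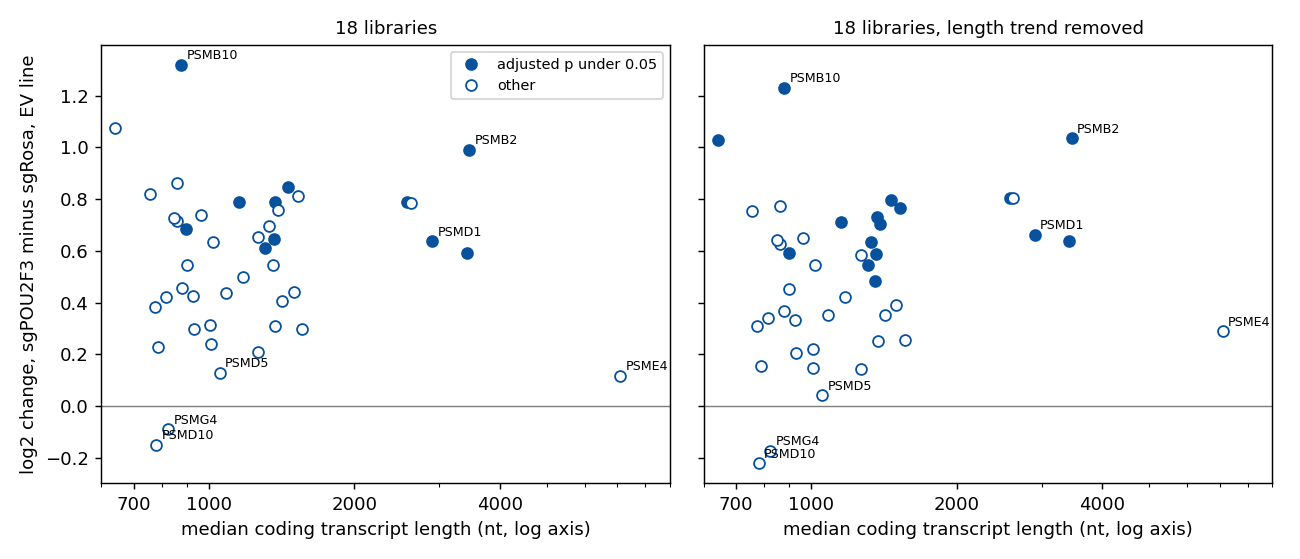
Change in EV cells (sgPOU2F3 minus sgRosa, log2) of each of the 44 genes against its median coding transcript length in nt on a log axis, as fitted (left) and with the length trend of each library removed (right); filled circles passed the test. The 6 genes of 1812 nt or longer had a median change of 0.71 as fitted and 0.73 with the trend removed, and the 38 shorter ones 0.54 and 0.47.

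The 6 longest transcripts, those of PSMA5, PSMB2, PSMD1, PSMD12, PSMD2 and PSME4, are as long as or longer than the median tested gene. Of these 4 rose with 18 libraries and 5 with 16. Among the other 38, 7 rose with 18 libraries and 31 with 16.

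Upstream sequences are shown for the genes with the largest changes in EV cells and for PSMD3, whose change of 0.61 was nearest to the median. They come from RefSeq (GRCh38.p14, 250 bases before each start, strand of the gene) and cover 38 of the 44 genes. The RefSeq start is not always the outermost start of the gene span given here, which is from GENCODE v29: the printed stretches of PSMB10, PSME2, PSMG1 and PSMG2 lie in annotated exons, 206, 775, 207 and 646 bases inside that span, and the other printed ones lie outside it. The table held no entry for PSMA7, PSMB1, PSMB6, PSMB7, PSMD4 and PSMG3. Motifs were searched on both strands as plain letters, and a match is a description of the letters only. For the proteasome genes the first window listed per gene was used. Shares of all promoter windows are over every window available, without a limit per gene or to expressed genes, so the shares compared are of unlike sets. PSMB10, the immunoproteasome subunit with the largest change, has the interferon-type ISRE letters GAAANNGAA, which 13.2% of the 38 windows and 6.9% of 35116 promoter windows of this length hold. They are in capitals here.
PSMB10 (chr16:67936852-67936881, minus strand): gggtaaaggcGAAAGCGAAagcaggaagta
PSMB3 had the next largest change, 1.07 ± 0.45, which was not called with 18 libraries. Capitals mark its antioxidant response element (TGACNNNGC, the letters that NFE2L1 and NFE2L2 bind) and both CCAAT boxes.
PSMB3 (chr17:38752491-38752735, plus strand): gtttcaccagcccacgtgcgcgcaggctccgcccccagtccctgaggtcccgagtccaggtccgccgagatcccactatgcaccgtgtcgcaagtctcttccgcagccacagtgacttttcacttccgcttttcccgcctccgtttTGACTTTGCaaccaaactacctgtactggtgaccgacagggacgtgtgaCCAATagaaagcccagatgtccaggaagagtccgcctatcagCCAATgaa
In PSMD3 the capitals mark a CCAAT box on the other strand, a gamma-activated site (TTCNNNGAA) and an antioxidant response element.
PSMD3 (chr17:39980557-39980796, plus strand): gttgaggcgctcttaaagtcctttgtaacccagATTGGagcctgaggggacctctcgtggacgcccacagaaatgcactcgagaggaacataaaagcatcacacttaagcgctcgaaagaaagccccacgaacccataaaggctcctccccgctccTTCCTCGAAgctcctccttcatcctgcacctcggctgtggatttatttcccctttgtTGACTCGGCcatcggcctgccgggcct
The window of PSMB2, next in size of change, had no match to any of the 9 motifs searched and overlaps an annotated exon, so it is not printed.

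The antioxidant response element was found in 10 of the 38 windows (26.3%), against 10.9% of all promoter windows, which are not limited to expressed genes. The sites are printed with their neighbouring bases, the match in capitals, because this element is the one by which proteasome genes are known to be raised together. The strand is that of the gene, and the sites of PSME4 and the first of PSMD9 match on the opposite strand.
PSMB3 (chr17:38752627-38752655, plus strand): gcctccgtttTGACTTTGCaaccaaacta
PSMD12 (chr17:67366724-67366752, minus strand): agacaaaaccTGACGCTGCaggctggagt
PSMD3 (chr17:39980760-39980788, plus strand): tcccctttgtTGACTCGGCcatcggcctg
PSMD5 (chr9:120843038-120843066, minus strand): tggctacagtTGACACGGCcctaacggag
PSMD9 (chr12:121888631-121888659, plus strand): cgctactcctGCCGGGTCAccacaggcgc
PSMD9 (chr12:121888678-121888706, plus strand): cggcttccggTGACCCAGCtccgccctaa
PSME1 (chr14:24136098-24136126, plus strand): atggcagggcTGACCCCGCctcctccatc
PSME2 (chr14:24146767-24146795, minus strand): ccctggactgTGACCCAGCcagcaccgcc
PSME4 (chr2:53971009-53971037, minus strand): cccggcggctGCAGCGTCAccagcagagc
PSMG1 (chr21:39183616-39183644, minus strand): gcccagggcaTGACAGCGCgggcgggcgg
PSMG2 (chr18:12658689-12658717, plus strand): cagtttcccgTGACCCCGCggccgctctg
The genes with this match had a median change of 0.60 in EV cells and those without it 0.64. PSMD5 and PSME4, with small changes, hold the letters as PSMB3 and PSMG1 do. CCAAT was in 42.1% of the windows against 32.0% of all, the ETS letters CCGGAAGT in 13.2% against 3.4%, and the gamma-activated site in 10.5% against 6.6%. The AP-1 letters TGANTCA were in 2.6% against 6.6%, those of the nuclear respiratory factor (GCATGCGC) in 2.6% against 2.6%, and those of TEAD factors (GGAATG) in 7.9% against 11.9%. The octamer ATGCAAAT, the letters POU factors bind, was in 0 of 38 windows and in 1.6% of all.

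**Figure D3:**
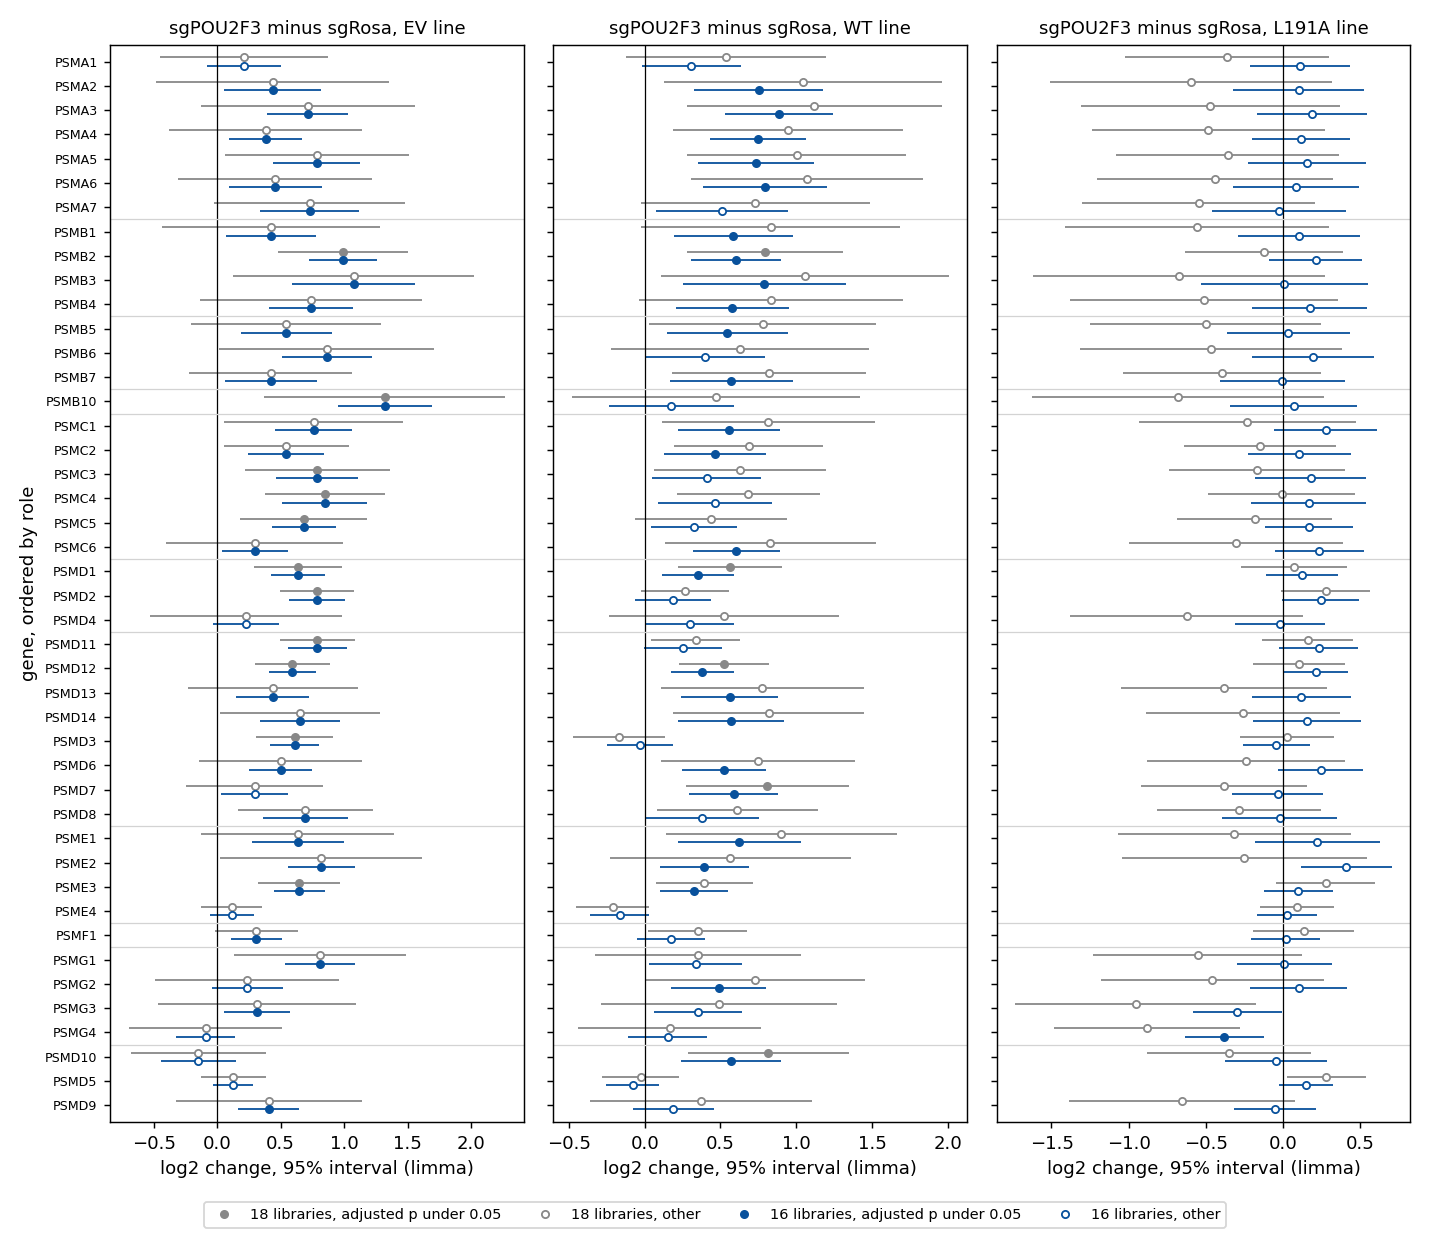
Change after sgPOU2F3 in the 3 lines for each of the 44 genes, ordered by role, in log2 units with the 95% interval of limma (grey: 18 libraries; blue: 16 libraries; filled: adjusted p under 0.05). In EV and WT cells nearly all points lie right of 0, and in L191A cells the grey points lie mostly left of 0 and the blue ones close to it.

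In the core particle of EV cells, all 14 constitutive subunits had a positive change, with a median of 0.63. Of these 1 rose with 18 libraries (PSMB2) and 13 with 16. Each count by role in EV cells is to be read against all genes, of which 12.6% rose with 18 libraries and 27.8% with 16. The 7 alpha subunits, which form the outer rings that gate the barrel, had a median of 0.46 and 6 of them rose with 16 libraries. The 4 structural beta subunits had a median of 0.87, and all 4 rose with 16 libraries. PSMA5 was the alpha subunit with the largest change, at 48.8, 54.9 and 34.4 scaled TPM in EV sgRosa and 94.4, 63.5 and 81.0 in EV sgPOU2F3. Its change was 0.79 ± 0.34 (limma adjusted p = 0.103 with 18 libraries and 0.000715 with 16), and the groups did not overlap. PSMA1 had the smallest, 0.21 ± 0.31, with values of 562, 611 and 456 and 725, 521 and 639.9 that overlapped (adjusted p = 0.664 and 0.206).

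PSMB2 (chr1:35599544-35641844, minus strand, GENCODE v29 on GRCh38), a structural beta subunit, was at 56.2, 62.3 and 44.1 scaled TPM in EV sgRosa and 123, 91.4 and 111 in EV sgPOU2F3. All 3 sgPOU2F3 libraries were above all 3 sgRosa libraries, and the change was 0.99 ± 0.24 (limma adjusted p = 0.0062). PSMB3 ran from 483, 529.7 and 269 to 1030.3, 669 and 936, also without overlap, but its SE with 18 libraries was large and its adjusted p was 0.089, against 0.00091 with 16. PSMB1 had the smallest change of the structural subunits, 0.42 ± 0.40, with values of 482, 546 and 354 and 714, 486 and 649 that overlapped.

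All 3 catalytic subunits had a positive change in EV cells, and all 3 were called with 16 libraries and 0 with 18. PSMB5, the chymotrypsin-like site that bortezomib blocks, was at 452, 479.6 and 305 scaled TPM in EV sgRosa and 664, 503 and 614 in EV sgPOU2F3. These groups did not overlap, and the change was 0.54 ± 0.35, with an adjusted p of 0.282 with 18 libraries and 0.0124 with 16. PSMB6, the caspase-like site, was at 219, 226 and 145 and at 409.6, 293 and 363, a change of 0.86 ± 0.40 (adjusted p = 0.128 and 0.000436), again without overlap. PSMB7, the trypsin-like site, was at 313, 329.8 and 225 and at 442, 303 and 419. Its groups overlapped, and its change was 0.42 ± 0.30 (adjusted p = 0.331 and 0.0454).

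PSMB10 (chr16:67934502-67937087, minus strand), which takes the place of PSMB7 in the immunoproteasome, was at 15.98, 18.9 and 9.78 scaled TPM in EV sgRosa and 46.7, 31.7 and 35.3 in EV sgPOU2F3. It rose by 1.32 ± 0.45 (limma adjusted p = 0.0388 with 18 libraries), and all sgPOU2F3 libraries were above all sgRosa libraries. The related subunits that the rule leaves out also rose: PSMB8 went from 5.22, 7.07 and 3.63 to 15.3, 14.5 and 18.3, a change of 1.46 ± 0.34 (adjusted p = 0.00496). PSMB9 was at 0.621, 0.989 and 0.293 scaled TPM and then at 7.60, 5.72 and 8.16, a change of 2.33 ± 0.40 (adjusted p = 0.000382), though its sgRosa values were under 1.

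**Figure D4:**
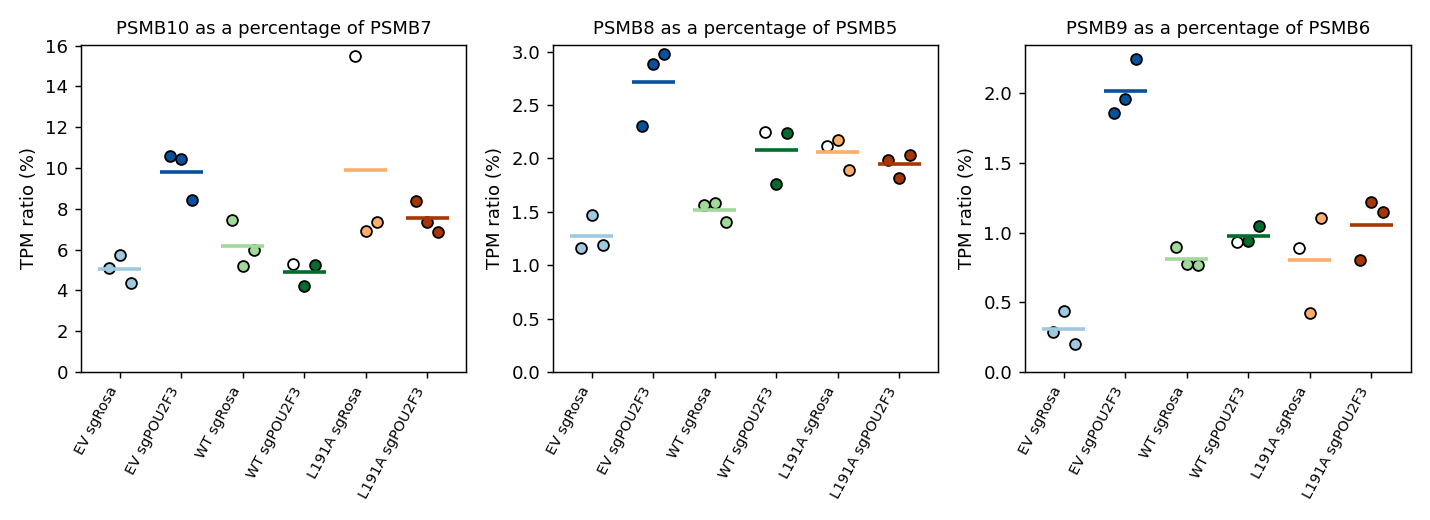
TPM of each immunoproteasome subunit as a percentage of the constitutive subunit it replaces, by library (bar: mean of 3; open circle: skewed library). PSMB10 is 4.34% to 5.72% of PSMB7 in EV sgRosa and 8.42% to 10.6% in EV sgPOU2F3, and for PSMB8 and PSMB9 every EV sgPOU2F3 library lies above all libraries of the other groups.

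Set against the constitutive partners, a ratio that no scaling changes, PSMB10 was 5.06% ± 0.687 (SD, n = 3) of PSMB7 in EV sgRosa and 9.82% ± 1.21 in EV sgPOU2F3. PSMB8 was 1.27% ± 0.174 and 2.72% ± 0.366 of PSMB5, and PSMB9 0.307% ± 0.119 and 2.02% ± 0.202 of PSMB6. In none of the 3 ratios did the EV groups overlap; an exact permutation test of 3 against 3 cannot give a p under 0.10, so none was run. In WT cells PSMB10 was 6.20% ± 1.14 of PSMB7 after sgRosa and 4.72% ± 0.73 after sgPOU2F3 in the 2 libraries that are not skewed. The ratios of PSMB8 and PSMB9 went the other way in WT cells. PSMB8 was 1.51% ± 0.099 of PSMB5 after sgRosa and 2.00% ± 0.34 in the same 2 sgPOU2F3 libraries. PSMB9 was 0.811% ± 0.075 and 0.996% ± 0.076 of PSMB6, and neither ratio overlapped between the guides. For PSMB10, L191A cells had 7.13% ± 0.304 in the 2 sgRosa libraries that are not skewed, 15.5% in the skewed one, and 7.54% ± 0.768 after sgPOU2F3. For PSMB8 they had 2.03% ± 0.201 in those 2 libraries, 2.11% in the skewed one, and 1.94% ± 0.115 after sgPOU2F3. For PSMB9 these were 0.765% ± 0.483, 0.888% and 1.06% ± 0.224. Every library thus held far more constitutive than immunoproteasome transcript.

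All 17 subunits of the regulatory particle had a positive change in EV cells, with a median of 0.64, and 8 rose with 18 libraries and 15 with 16. Among the 6 ATPases of the base, 3 rose with 18 libraries (PSMC3, PSMC4 and PSMC5) and all 6 with 16. PSMC4 was at 122, 133 and 84.5 scaled TPM in EV sgRosa and 234, 168 and 206 in EV sgPOU2F3, and rose by 0.85 ± 0.22 (limma adjusted p = 0.0102) with no overlap. PSMC3 was at 162, 170.4 and 112 and then at 289.9, 209.6 and 266, a rise of 0.79 ± 0.27 (adjusted p = 0.0397). PSMC6 moved least, by 0.30 ± 0.33, and its values of 191.3, 217 and 156 and 259, 190.9 and 244 overlapped.

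PSMD2 and PSMD1 are the large scaffold subunits of the base on which ubiquitin carriers dock. PSMD2 was at 193, 187 and 159 scaled TPM in EV sgRosa and 338, 279.6 and 314 in EV sgPOU2F3, a rise of 0.79 ± 0.14 (limma adjusted p = 0.000428), without overlap. PSMD1 was at 87.5, 92.9 and 76.0 and then at 143, 117 and 140.2, a rise of 0.64 ± 0.16 (adjusted p = 0.00808). PSMD4, the ubiquitin receptor of the base, was at 223, 233 and 172 and at 277, 207 and 251, with overlap, and its change of 0.23 ± 0.36 (95% interval −0.53 to 0.98) was not called in either fit.

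All 8 lid subunits had a positive change, and 3 rose with 18 libraries and 7 with 16. PSMD11, a lid subunit that contacts the core, was at 73.8, 77.2 and 60.2 scaled TPM in EV sgRosa and 133, 108 and 125 in EV sgPOU2F3. It rose by 0.79 ± 0.14 (limma adjusted p = 0.000473) with no overlap. PSMD14, the deubiquitinase that strips ubiquitin from substrates, was at 178, 189 and 125 and at 294, 208 and 269. Its groups did not overlap, and its change was 0.65 ± 0.30 (adjusted p = 0.119 with 18 libraries and 0.00152 with 16). PSMD7, the partner of PSMD14 without enzyme activity, had the smallest change of the lid, 0.30 ± 0.25, and its values of 198, 213 and 160.3 and 270.0, 195 and 238 overlapped.

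Among the activators, which open the core without ATP, PSME3, the nuclear form, rose with 18 libraries. It was at 133, 136 and 120.4 scaled TPM in EV sgRosa and 217, 185 and 208 in EV sgPOU2F3, a change of 0.65 ± 0.15 (limma adjusted p = 0.00484). PSME1 and PSME2, the pair that interferon induces, were called with 16 libraries only: PSME2 was at 175, 169.9 and 129.6 and then at 318, 235 and 287, a change of 0.82 ± 0.37 (adjusted p = 0.122 and 4.93e-05). PSME1 was at 157, 175 and 112 and at 266, 182 and 239.7, a change of 0.64 ± 0.36 (adjusted p = 0.212 and 0.00526). The largest activator, PSME4, was close to level in both groups, at 108, 102 and 115 and 109, 124.4 and 119.9, with a change of 0.12 ± 0.11 (95% interval −0.12 to 0.36) that was −0.02 on the deposited TPM without scaling, where the median of all genes was −0.13. PSMF1, an inhibitor of the core in the test tube, was at 48.3, 50.5 and 42.8 and 63.6, 51.4 and 61.3, a change of 0.31 ± 0.15 called with 16 libraries (adjusted p = 0.0112).

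The assembly chaperones, which are not part of the finished particle, had a median change of 0.24. Of the 7, 0 rose with 18 libraries and 3 with 16, where 12.6% and 27.8% of all genes rose. PSMG1, which pairs with PSMG2 to build the alpha ring, had the largest change of these, at 83.6, 95.2 and 70.9 scaled TPM in EV sgRosa and 173, 123 and 146 in EV sgPOU2F3. Its change was 0.81 ± 0.32 (limma adjusted p = 0.0727 with 18 libraries and 8.12e-05 with 16), and the groups did not overlap. PSMG2 was at 89.0, 96.7 and 65.7 and at 108, 83.0 and 104, with overlap, and a change of 0.24 ± 0.34 was not called in either fit. PSMG4 (−0.09 ± 0.28) and the base chaperone PSMD10, also known as gankyrin (−0.15 ± 0.25), were the only genes of the 44 with a negative change, and neither was called. PSMD9, with 0.41 ± 0.34, had the largest change of the base chaperones. At an unadjusted p under 0.05, 20 of the 44 genes differed in EV cells with 18 libraries and 37 with 16, where 37.3% and 60.4% of all genes did.

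**Figure D5:**
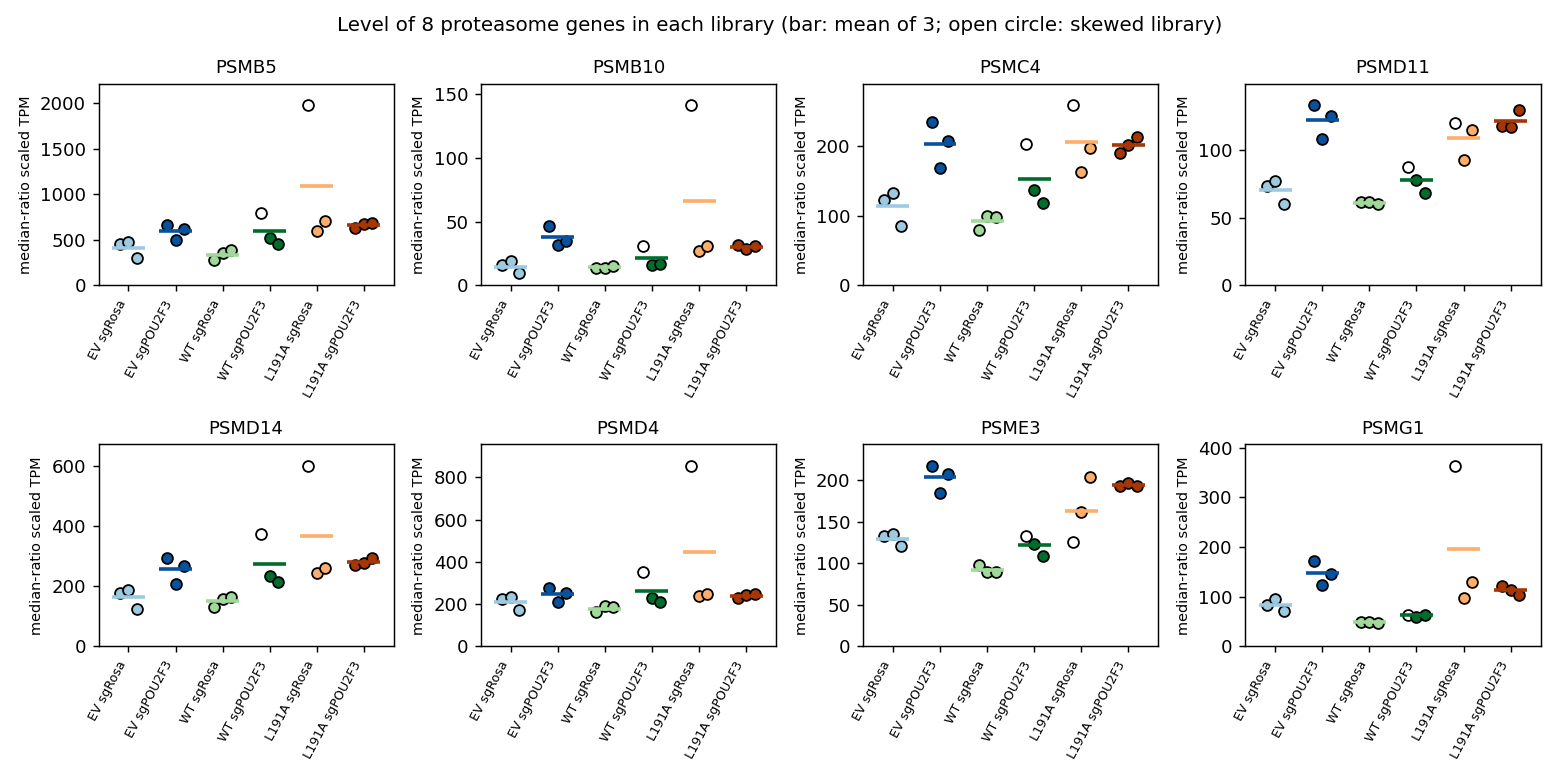
Scaled TPM of 8 genes in every library (bar: mean of 3; open circle: skewed library). PSMC4, PSMD11 and PSME3 are higher in EV sgPOU2F3 and L191A sgPOU2F3 than in the unskewed WT libraries, PSMD4 lies between 160.3 and 277 outside the skewed libraries, and PSMG1 stays under 65 in the WT line.

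Subunits of 1 particle were not at 1 level of scaled TPM. In EV sgRosa the alpha subunits, present in equal number in the particle, ran from 46.0 scaled TPM for PSMA5 to 713 for PSMA7, a ratio of 15.5. The constitutive beta subunits ran from 54.2 for PSMB2 to 461 for PSMB1, a ratio of 8.50. The ATPases ran from 47.2 for PSMC2 to 233 for PSMC1, and the other subunits of the regulatory particle from 46.4 for PSMD12 to 230.3 for PSMD3. PSMA5, PSMB2 and PSMD12 also had the longest transcripts of their units, with medians of 2616.5, 3459 and 3421.5 nt. PSMC2, at 1357 nt, was not the longest ATPase transcript. TPM is corrected for length with an unknown transcript set, so ratios between genes depend on that correction. The part of length in them was not tested. Core subunits took 0.606%, 0.627% and 0.492% of TPM in the EV sgRosa libraries, against 0.305%, 0.307% and 0.274% for the regulatory particle. After sgPOU2F3 the core took 0.852%, 0.708% and 0.808% and the regulatory particle 0.42%, 0.392% and 0.411%, so both shares were higher in all EV sgPOU2F3 libraries than in any EV sgRosa library.

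The WT line also had higher proteasome levels after sgPOU2F3, from the lowest starting point of the 3 lines. The summed share of TPM was 0.845%, 0.872% and 0.882% in WT sgRosa and 1.03% and 1.00% in the unskewed WT sgPOU2F3 libraries, against 1.13% in the skewed one. With 18 libraries 41 of 44 changes were positive, the median was 0.69, and 5 genes rose and 0 fell, where 6.64% of all genes rose and 5.98% fell. Those 5 calls depended on single libraries: leaving out any WT sgRosa library or the skewed one gave 0 calls, leaving out WT sgPOU2F3 replicate 2 gave 2 and leaving out replicate 3 gave 14. Without both skewed libraries the median was 0.46, and 25 rose and 0 fell, where 15.5% of all genes rose and 10.2% fell.

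The 5 genes called in WT cells were PSMD10, PSMD7, PSMB2, PSMD1 and PSMD12. PSMD10 was at 60.4, 72.6 and 72.0 scaled TPM in WT sgRosa and 106 and 97.1 in the unskewed WT sgPOU2F3 libraries, with 170.4 in the skewed one. It rose by 0.82 ± 0.25 (limma adjusted p = 0.0449) and, with 16 libraries, by 0.57 ± 0.16 (adjusted p = 0.0184). PSMD7 was at 119, 139 and 137 and at 206 and 190.4, with 313 in the skewed library, a rise of 0.81 ± 0.25 and of 0.59 ± 0.14 with 16. These groups did not overlap with or without the skewed library. PSMB2 rose by 0.79 ± 0.24, PSMD1 by 0.56 ± 0.16 and PSMD12 by 0.52 ± 0.14, and with 16 libraries by 0.60, 0.35 and 0.38, called there too.

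In WT cells 11 of the 14 constitutive core subunits rose with 16 libraries, 9 of 17 in the regulatory particle and 2 of 7 assembly chaperones, where 15.5% of all genes rose. PSMB5 was at 273, 354 and 389 scaled TPM in WT sgRosa and 524 and 458 in the unskewed sgPOU2F3 libraries, a change of 0.54 ± 0.19 (limma adjusted p = 0.0452, 16 libraries). PSMB7 changed by 0.57 ± 0.19 (adjusted p = 0.0391) and PSMB6 by 0.40 ± 0.19, which was not called. PSMB10, the leader in EV cells, was at 13.96, 13.7 and 15.4 and at 15.9 and 16.7, with 31.0 in the skewed library. Its change of 0.18 ± 0.19 was not called, and the difference from the change in EV cells was −1.14 ± 0.26 (limma adjusted p = 0.00349, 16 libraries) but −0.85 ± 0.63 (adjusted p = 0.391) with 18.

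The other genes named throughout were as follows in WT cells, with 16 libraries. PSMD14 changed by 0.57 ± 0.17 (limma adjusted p = 0.0232), PSME1 by 0.63 ± 0.19, PSME2 by 0.39 ± 0.14, PSME3 by 0.33 ± 0.11 and PSMG2 by 0.49 ± 0.15, and all of these were called. PSMD4 (0.30 ± 0.14), PSMF1 (0.17 ± 0.10), PSMG1 (0.34 ± 0.15) and PSME4 (−0.17 ± 0.09) were not. On the deposited TPM without scaling, the changes of PSME3, PSMF1 and PSMG1 in WT cells turned to −0.06, −0.10 and −0.09, where the median of all genes was −0.42, and that of PSME4 turned to 0.11 with the length trend removed.

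PSMD3, a lid subunit (chr17:39980797-39997960, plus strand), was the gene whose response differed between these lines. It was at 245, 237 and 209 scaled TPM in EV sgRosa and 364, 357 and 333 in EV sgPOU2F3, a rise of 0.61 ± 0.14 (limma adjusted p = 0.00485). In WT cells it was at 238, 239 and 244 and at 244 and 227, with 176 in the skewed library, a change of −0.17 ± 0.14 that was not called. The difference between the changes was −0.78 ± 0.20 (adjusted p = 0.017) with 18 libraries and −0.64 ± 0.14 (adjusted p = 0.00224) with 16. Of the 44 genes it was the one called with 18 libraries, where 6.91% of all genes had a larger change in WT cells and 8.35% a smaller one. With 16 libraries 4 were smaller in WT cells (PSMB10, PSMD2, PSMD3 and PSMD11) and 1 larger (PSMD10, 0.72), where 17.1% of all genes went each way. At an unadjusted p under 0.05, 4 genes differed with 18 libraries and 9 with 16, where 30% and 44.1% of all genes did.

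In L191A cells no proteasome gene was called higher after sgPOU2F3 than after sgRosa in either fit. Their share of TPM was 1.16% and 1.34% in the unskewed L191A sgRosa libraries, 1.53% in the skewed one, and 1.35%, 1.34% and 1.38% after sgPOU2F3. With 18 libraries the median change was −0.35, and 0 genes were called, where 6.41% of all genes rose and 3.24% fell (limma; 3 genes at an unadjusted p under 0.05, where 25.4% of all genes were). Without the skewed pair the median turned to 0.11, and 1 gene was called, where 9.13% of all genes rose and 6.12% fell. That gene was PSMG4, a chaperone of the alpha ring, named after its values were seen, at 297, 115 and 93.9 in L191A sgRosa and 84.9, 80.0 and 74.7 in L191A sgPOU2F3, a change of −0.38 ± 0.12 (limma adjusted p = 0.0468, 16 libraries).

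The direction in this line depended on the skewed library and on the scaling. With 18 libraries the genes' summed level changed by −0.427 (log2) after scaling and by 0.024 on the deposited TPM. With 16 libraries it changed by 0.093 after scaling. PSMB5 was at 1975 scaled TPM in the skewed library and at 593 and 704 in the other L191A sgRosa libraries, against 629, 674 and 686 after sgPOU2F3. PSMB10 was at 142 and at 26.9 and 30.9, against 31.8, 28.6 and 30.7. PSMD4 was at 853 and at 238 and 248, against 228, 242 and 248. For these genes the skewed library was far above its group's other libraries, while for PSMD2 it was at 224, between the others at 210.7 and 274. With 18 libraries the median change was 0.083 for the 6 transcripts of 1812 nt or longer and −0.38 for the 38 shorter ones. With the length trend removed these were −0.11 and −0.184. Single genes departed from this order. The long transcripts of PSMB2 and PSMA5 were at 184 and 208 in the skewed library, against 84.0 and 98.9 and against 67.8 and 73.8. The shorter ones of PSMD5 and PSME3 were at 29.2 and 125, below 36.8 and 41.1 and below 161 and 204. The part of transcript length was not tested. With 16 libraries PSMB5 changed by 0.04 ± 0.19, PSMB10 by 0.07 ± 0.19 and PSMD4 by −0.02 ± 0.14, none called.

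The difference between the responses of L191A and EV cells was negative for 43 of the 44 genes with 18 libraries and for 42 with 16. With 18 libraries 2 were called, PSMB2 with −1.11 ± 0.34 (limma adjusted p = 0.0449) and PSMD11 with −0.63 ± 0.20 (adjusted p = 0.0469), where 5.75% of all genes had a smaller change in L191A cells and 6.42% a larger one. With 16 libraries 14 were called, all smaller, where 14.5% of all genes went each way. They included PSMB10 (−1.25 ± 0.26), PSMB2 (−0.78 ± 0.19), PSMG1 (−0.80 ± 0.19), PSMD3 (−0.65 ± 0.14) and PSME3 (−0.55 ± 0.14). In a fit of the 4 groups alone, skewed library included, 0 were called by limma, with 15 at an unadjusted p under 0.05, where 27.7% of all genes were. Leaving out any EV sgRosa library, any L191A sgPOU2F3 library or EV sgPOU2F3 replicate 1 or 3 from the 18 gave 0 calls as well, and leaving out L191A sgRosa replicate 1, 2 or 3 gave 7, 23 and 5.

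Between L191A and WT cells the responses differed for PSMD7, by −1.19 ± 0.36 (limma adjusted p = 0.0439), and for PSMD10, by −1.16 ± 0.35 (adjusted p = 0.0446), with 18 libraries, where 5.98% of all genes had a smaller change in L191A cells and 7.08% a larger one. The name-only member PSMC3IP differed too, by −1.35 ± 0.38 (adjusted p = 0.0342). Both groups that hold a skewed library enter this comparison. With 16 libraries the differences were −0.62 ± 0.20 for PSMD7 (adjusted p = 0.0444), −0.61 ± 0.22 for PSMD10 (adjusted p = 0.0721) and −0.77 ± 0.23 for PSMC3IP (adjusted p = 0.0368), and 2 of the 44 genes were called, PSMD7 and PSMG3, where 6.83% of all genes were smaller and 7.83% larger. From the 18, leaving out L191A sgRosa replicate 1, 2 or 3 gave 6, 34 and 24 calls and leaving out WT sgPOU2F3 replicate 3 gave 7, while leaving out WT sgPOU2F3 replicate 2 gave 1 and any other single library of these groups gave 0.

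With the control guide the lines themselves differed. L191A sgRosa was above EV sgRosa for 42 of 44 genes with a median of 0.91, and 31 rose and 0 fell, where 16% of all genes were higher and 15.4% lower. Without the skewed pair the median was 0.49, and 32 were higher and 0 lower, where 20% of all genes were higher and 19.9% lower. The call rested on the shared spread and on the libraries kept: a fit of these 2 groups with the skewed library gave 0 calls (limma, 17 at an unadjusted p under 0.05, where 24.4% of all genes were), and leaving out EV sgRosa replicate 3 or replicate 1 from the 18 gave 2 and 19. PSMD11 had the smallest p, at 73.8, 77.2 and 60.2 in EV sgRosa and 120.3, 92.5 and 115 in L191A sgRosa, a difference of 0.63 ± 0.14 (adjusted p = 0.00428) and of 0.55 ± 0.12 with 16 libraries. This difference was −0.01 on the deposited TPM without scaling, where the median of all genes was −0.56. PSMB2 differed by 0.75 ± 0.14 and PSMB3 by 1.10 ± 0.25 with 16 libraries.

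Against WT sgRosa, L191A sgRosa was higher for 39 genes and lower for 0 with 18 libraries, where 25.8% of all genes were higher and 24.3% lower, and for 41 and 0 with 16, where 29% and 28.2% were. The median difference was 1.19 and, with 16 libraries, 0.80. In a fit of these 2 groups alone 12 were higher. PSMD12, the gene with the smallest p, was at 35.1, 33.4 and 35.6 scaled TPM in WT sgRosa and 76.1, 54.2 and 66.8 in L191A sgRosa, a difference of 0.89 ± 0.14 (limma adjusted p = 0.00018) and of 0.78 ± 0.10 with 16. PSMD11 followed with 0.82 ± 0.14, at 61.7, 61.7 and 59.98 and 120.3, 92.5 and 115. Neither gene's groups overlapped. PSMC3IP was higher by 1.15 ± 0.16 with 16 libraries.

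WT sgRosa was below EV sgRosa for 41 of 44 genes, with a median of −0.31. The one gene called with 18 libraries was PSME3 at 133, 136 and 120.4 and 97.4, 89.1 and 89.4, a change of −0.49 ± 0.15 (limma adjusted p = 0.0439), where 5.51% of all genes fell and 7.61% rose. Leaving out any 1 of the 6 libraries ended that call. With 16 libraries 19 fell and 0 rose, where 22.2% of all genes fell and 20.2% rose. PSMG1 was the gene with the largest difference there, at 83.6, 95.2 and 70.9 in EV and 49.8, 48.4 and 47.1 in WT, a change of −0.76 ± 0.13 (adjusted p = 0.000293), with no overlap.

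After sgPOU2F3, most proteasome genes had a lower estimate in WT than in EV cells. With 18 libraries 7 genes fell and 0 rose (median −0.18), where 15.9% of all genes were lower and 14.6% higher. The share that fell was thus like that of all genes. With 16 libraries 21 fell and 0 rose (median −0.39), where 25.6% were lower and 24.9% higher. PSMG1 differed most, at 173, 123 and 146 scaled TPM in EV and 63.3, 59.1 and 63.9 in WT, a change of −1.22 ± 0.32 (limma adjusted p = 0.00888) that was −1.24 with 16. In this gene the skewed WT library stood with the others of its group. PSMD2, PSME3, PSMD3 and PSMD11 were lower too, with changes of −0.80 ± 0.14, −0.74 ± 0.15, −0.71 ± 0.14 and −0.65 ± 0.14 and adjusted p of 0.000363, 0.00169, 0.00144 and 0.00226. The other 2 of the 7 were PSMD5 and PSMD12. In the core, 0 of 14 constitutive subunits were called with 18 libraries and 4 with 16, against 4 and 11 of 17 in the regulatory particle.

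Between L191A and EV cells after sgPOU2F3 few differences were called. The median difference was 0.02 over the 44 genes, from −0.37 to 0.36, and 0 were called with 18 libraries (limma; 0 at an unadjusted p under 0.05, where 19.8% of all genes were), where 3.92% of all genes were higher and 4.25% lower. With 16 libraries 1 was higher (PSMC6, 0.36 ± 0.12) and 1 lower (PSMG1, −0.37 ± 0.13), both named after their values were seen, where 14.4% of all genes were higher and 16.3% lower. PSMB5 was at 664, 503 and 614 scaled TPM in EV and 629, 674 and 686 in L191A, a difference of 0.17 ± 0.17 (95% interval −0.19 to 0.53, 16 libraries). For PSMB10 it was −0.29 ± 0.17 (95% interval −0.66 to 0.08) and for PSMD14 0.15 ± 0.15 (95% interval −0.17 to 0.46).

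Against WT cells after sgPOU2F3, L191A cells were higher for 6 genes and lower for 0 with 18 libraries, where 10.5% of all genes were higher and 11.6% lower. With 16 libraries they were higher for 22 and lower for 0, where 22.1% and 22.3% were, and the median rose from 0.21 to 0.41. PSMD2 led, at 198, 172 and 163 scaled TPM in WT and 282, 279 and 294 in L191A, a difference of 0.68 ± 0.14 (limma adjusted p = 0.00171), without overlap. PSME3 differed by 0.68 ± 0.15, PSMD11 by 0.64 ± 0.14, PSMD3 by 0.51 ± 0.14 and PSMD12 by 0.47 ± 0.14, and all 6 ATPases of the base were higher with 16 libraries. Leaving out L191A sgPOU2F3 replicate 1 or replicate 2 from the 18 left 3 calls. The comparisons of a guide or a line share groups with each other, so their counts are not independent.

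Genes that act with the proteasome but do not carry its names were read from lists chosen with earlier results of these data known. Each count in EV cells is to be read against all genes, of which 12.6% rose and 13.8% fell with 18 libraries and 27.8% and 27.4% with 16. Of 24 tested genes for proteasome-associated factors, 6 rose and 1 fell in EV cells with 18 libraries and 15 rose and 3 fell with 16, with a median of 0.31. ADRM1, a ubiquitin receptor of the regulatory particle, moved most: it was at 139.9, 139 and 97.3 scaled TPM in EV sgRosa and 355, 279 and 293 in EV sgPOU2F3, a rise of 1.31 ± 0.19 (limma adjusted p = 0.000105) with no overlap. ECPAS, an adaptor that binds the whole particle, rose by 0.56 ± 0.10, and ZFAND5, a factor that activates it, fell (−0.39 ± 0.09). POMP, the chaperone that matures the beta ring, was at 69.4, 66.8 and 44.7 and at 107, 77.1 and 117, a change of 0.73 ± 0.41 called with 16 libraries (adjusted p = 0.208 and 0.00142).

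Transcripts of the known regulators did not move as 1 group in EV cells: of 18, 7 rose and 2 fell with 18 libraries, and 9 and 2 with 16. NFE2L1, which drives proteasome genes when proteasome activity falls short, was at 197, 190.3 and 232 scaled TPM in EV sgRosa and 153, 201 and 162 in EV sgPOU2F3. These overlapped, and its change was −0.27 ± 0.22 (limma adjusted p = 0.408 and, with 16 libraries, 0.0519). DDI2, the protease that cleaves NFE2L1 into its active form, changed by −0.14 ± 0.69 and was not called. NGLY1, which removes sugars from NFE2L1, rose by 0.61 ± 0.20 (adjusted p = 0.0374).

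NFE2L2, the antioxidant regulator, was at 33.8, 38.8 and 33.6 and at 55.7, 51.5 and 54.5, a rise of 0.60 ± 0.12 (limma adjusted p = 0.00215), and NFE2L3 rose by 0.58 ± 0.15 (adjusted p = 0.00925). Those that fell were FBXW7, a ubiquitin ligase receptor (−1.14 ± 0.12), and FOXO4, a forkhead factor (−1.16 ± 0.25). NFE2L2 targets outside the proteasome had a median of 0.75, and 7 of 14 rose and 0 fell with 18 libraries (11 and 1 with 16). AKR1B10, a reductase, was at 0.670, 0.815 and 0.794 and at 11.1, 11.5 and 10.8, a rise of 2.78 ± 0.15 (adjusted p = 7.53e-10). OSGIN1 rose by 1.65 ± 0.11.

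The interferon and antigen presentation genes around the immunoproteasome had the highest median of the lists, 1.03, and 9 of 12 rose and 0 fell in EV cells with 18 libraries (11 and 0 with 16). IRF1, the factor that induces immunoproteasome genes, was at 11.2, 11.5 and 9.54 scaled TPM in EV sgRosa and 43.2, 35.3 and 43.4 in EV sgPOU2F3, a rise of 1.82 ± 0.13 (limma adjusted p = 4.45e-08). TAP2 and TAP1, the subunits of the peptide transporter, rose by 1.16 ± 0.11 and 1.05 ± 0.13. PSMB8 and PSMB9, given above, are members of this list.

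Ubiquitin and its conjugating enzymes had a median of 0.15: 2 of 31 rose and 0 fell with 18 libraries, and 12 and 1 with 16. The share that rose with 18 libraries was below the 12.6% of all genes. UBE2D1 rose by 0.47 ± 0.14 and UBE2G2 by 0.37 ± 0.11, while UBE2J2 changed by 0.60 ± 0.23 and was called with 16 libraries (limma adjusted p = 5.11e-05). Of 15 chaperone and proteostasis genes in the table, 2 rose and 0 fell with 18 libraries, a share near that of all genes, and 12 and 0 with 16, with a median of 0.50. BAG3, a co-chaperone, rose by 0.71 ± 0.12 and SQSTM1, an autophagy receptor, by 0.53 ± 0.16, and TCP1, of the cytosolic chaperonin, changed by 0.68 ± 0.26 (adjusted p = 0.000336 with 16 libraries). The COP9 signalosome and eIF3, complexes built on the same plan as the lid, had a median of 0.20, and 4 of 22 rose and 0 fell with 18 libraries (10 and 3 with 16), among them GPS1 (0.63 ± 0.12), EIF3J (0.65 ± 0.15) and EIF3I (0.73 ± 0.22).

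In WT cells after sgPOU2F3, where 6.64% of all genes rose and 5.98% fell with 18 libraries and 15.5% and 10.2% with 16, 1 of 24 proteasome-associated genes rose and 0 fell (5 and 1 with 16), with a median of −0.04. For the 14 NFE2L2 targets these counts were 3 and 1 (4 and 1 with 16), with a median of 0.15, and for the 15 chaperone genes 2 and 0 (8 and 0 with 16), with a median of 0.69 that was 0.48 with 16. Of the 31 ubiquitin genes 4 rose and 0 fell (9 and 0 with 16; median 0.28), of the 12 interferon and antigen presentation genes 3 and 0 (4 and 0; median 0.31), of the 22 COP9 and eIF3 genes 1 and 0 (5 and 0; median 0.45) and of the 18 regulators 0 and 1 (3 and 1; median 0.00). In L191A cells, where 6.41% of all genes rose with 18 libraries and 9.13% with 16, 5 of the 14 NFE2L2 targets rose and 0 fell (7 and 0 with 16), with a median of 0.40. Over the other 6 lists there, 1 gene rose and 1 fell with 18 libraries. With 16 libraries 1 of 24 proteasome-associated genes rose and 1 fell, and 2 of 18 regulators and 2 of 31 ubiquitin genes rose. Of the 12 interferon and antigen presentation genes 2 rose and 1 fell. The share of all genes that fell was 3.24% with 18 libraries and 6.12% with 16. ADRM1 was at 112, 122 and 133 scaled TPM in WT sgRosa and 159.9 and 145 in the unskewed WT sgPOU2F3 libraries, with 192 in the skewed one. L191A sgPOU2F3, at 268, 285 and 272, lay above all of these and near the EV sgPOU2F3 values for this gene.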

How the data were processed

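RNA from 18 cultures was sequenced as poly(A) libraries (TruSeq v2 kit, per the labels' protocols). The authors deposited 1 table of TPM, length-corrected abundances that sum to the same total in each library. The submitters' processing notes name kallisto and hg38, and the sources used here give no version, transcript set or strandedness. Read depth is unknown, so no counting interval is given, and a TPM is a share: a rise of a few abundant transcripts lowers all others.

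Of 19875 entries 131 name no gene (27 of them dates; 1.64 to 2.43% of TPM) and were left out. TPM was divided by a median-ratio size factor from 12911 genes above 0 in every library. Differences were tested with limma 3.58.1 in R 4.3.3 (moderated test with an intensity trend, two-sided) on log2(value + 1), which understates changes of low genes, over the 13067 genes whose mean reached 1 TPM, with 1 coefficient per group and Benjamini-Hochberg adjustment within each of 12 contrasts. The fit was tested on simulated data. Alternatives were the deposited TPM, quantile normalization, pseudocounts of 0.1 and 5, no minimum and a minimum of 5 TPM, only the groups compared, no variance trend, array weights, a replicate block, each library's length trend removed (lowess span 0.3; 97.7% of tested genes have a length), 16 libraries, and each library left out.

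The members, lists and rules were chosen with earlier results of these data known. Named genes are the catalytic subunits, PSMB10, PSMD4, PSMD14, the activators, PSMF1, PSMG1 and PSMG2, the extremes of each role in EV cells, up to 5 called genes with the largest change per effect of the guide and per pair of lines under sgPOU2F3, up to 3 with the smallest p in the other comparisons, and 3 per list. Any gene named beyond these was chosen after its values were seen. Some listed genes are not analysed or not reported singly here.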

Additional observations from a re-analysis of the deposited data

Results flagged for a closer look

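The change after sgPOU2F3 differed between lines for 6 members by the limma interaction term with 18 libraries. One of them, PSMC3IP, is a member by name only. Between WT and EV cells it differed for the lid subunit PSMD3 by −0.78 (log2, adjusted p = 0.017), and without the skewed pair by −0.64 (adjusted p = 0.00224). Between L191A and EV cells it differed for PSMB2 by −1.11 (adjusted p = 0.0449) and for PSMD11 by −0.63 (adjusted p = 0.0469), and without the pair by −0.78 and −0.56, both called. Between L191A and WT cells it differed for PSMC3IP by −1.35 (adjusted p = 0.0342), for PSMD7 by −1.19 (adjusted p = 0.0439) and for PSMD10 by −1.16 (adjusted p = 0.0446). Without the pair these were −0.77, −0.62 and −0.61, and PSMD10 was no longer called. With 18 libraries 6.91% of all genes had a larger and 8.35% a smaller change in WT than in EV cells. For L191A against EV cells these shares were 6.42% and 5.75%, and for L191A against WT cells 7.08% and 5.98%. Each of these comparisons includes a group with a skewed library, which is why the values without the pair are given. Groups of 3 are too small for a test of outlying libraries gene by gene.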

How the results depend on the processing

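Counts of called genes below are of the 44, by limma, and show only how far a count moved with the processing. Calls among all genes moved too: in EV cells 12.6% rose with 18 libraries and 27.8% with 16. The shares of all genes called under the other alternatives are not given here. A larger count under one of them is therefore no result about the proteasome genes. For the sgPOU2F3 change, every gene called in EV cells was higher under all alternatives run, and in WT cells too apart from 1 lower gene with array weights. The pseudocounts and the fit without a variance trend moved no count by over 1.5 times, and without a minimum the rule takes in 47 names. For the sgPOU2F3 change in EV cells, 11 calls became 19 on the deposited TPM, 21 with quantile normalization, 37 with array weights, 27 in a fit of the groups compared, 36 with 16 libraries, 35 with the length trend also removed there and 30 with a replicate block there. For WT cells, 5 became 19 with quantile normalization, 39 with array weights, 9 in the groups alone, 9 with the replicate block, 11 with the length trend removed, 2 without a minimum, 25 with 16 libraries, 21 with the length trend removed there and 16 with the block there. For L191A cells, 0 became 2, 4, 1 (block) and 1 (length) under quantile normalization, array weights, replicate block and length correction, and 1, 2 and 1 with 16 libraries alone, with length correction and with the block. Its median turned from −0.352 to 0.096 on the deposited TPM, 0.042 with quantile normalization, 0.126 with array weights and 0.109, 0.118 and 0.104 in those 3 fits of 16 libraries. The WT median of 0.686 became 0.239 on the deposited TPM and 0.344 with quantile normalization. The summed level changed by 0.737 in WT cells and 0.283 on the deposited TPM, and by −0.427 in L191A cells and 0.024 on the deposited TPM.

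Between lines after sgPOU2F3, the 7 calls of WT against EV became 17 (deposited TPM), 15 (quantile), 33 (array weights), and 21, 24 and 20 with 16 libraries alone, with length correction and with the block. The 0 of L191A against EV became 5 with array weights and 2, 2 and 1 with 16 libraries, and the 6 of L191A against WT became 13, 14 and 34, and 22, 30 and 20. After sgRosa, the 1 call of WT against EV became 3, 4 and 37, 15 in the groups alone, 0 with length correction and with a minimum of 5 TPM, and 19, 19 and 16 with 16 libraries. The 31 of L191A against EV became 18 (17 higher and 1 lower) on the deposited TPM and 0 in the groups alone, and the 39 of L191A against WT became 12 in the groups alone. For the difference of changes between WT and EV, 1 became 5 (quantile), 13 (array weights), 3 (groups alone), 2 (length), and 5, 8 and 5 with 16 libraries. Between L191A and EV, 2 became 5 (quantile), 25 (array weights), 0 (groups alone), 4 with the block, 1 without a minimum and with 5 TPM, and 14, 17 and 11. Between L191A and WT, 2 became 0 on the deposited TPM, 8 (quantile), 16 (array weights), 0 (groups alone), 0 without a minimum, 7 with the block, and 1 with the block in 16 libraries. The cause of these shifts was not tested.

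Leaving out 1 library gave 7 to 11 calls in EV cells (median 0.46 to 0.68), 0 to 14 in WT cells (0.464 to 0.826) and 0 to 4 in L191A cells (−0.612 to 0.109). After sgPOU2F3 it gave 6 to 10 for WT against EV, 0 for L191A against EV and 3 to 8 for L191A against WT, and after sgRosa 0, 2 to 38 and 34 to 40. For the differences of changes it gave 1 to 2, 0 to 23 and 0 to 34. Where this leaves 2 libraries, they are assumed to vary like the other groups.

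For single genes 1127 settings kept direction and call, 147 lost the call, 111 gained one and 11 reversed: PSMA1 in EV cells at −0.086 and PSME4 at −0.069 with quantile normalization, PSME4 at −0.021 on the deposited TPM, and PSMD10 at 0.037 and PSMG4 at 0.024 without EV sgPOU2F3 replicate 2, the top of ranges that began at −0.263 and −0.219 without replicate 1 of that group. In WT cells PSME3 (−0.055), PSMF1 (−0.095) and PSMG1 (−0.094) reversed on the deposited TPM and PSME4 with length correction (0.106, and 0.046 with 16 libraries), and PSMD11 was at −0.012 for L191A against EV after sgRosa on the deposited TPM. Same-numbered libraries of 2 groups did not deviate together: over 45 pairs the correlation ran from −0.600 to 0.618 with a median of −0.0151, 16 were over 0.1, and 8 of 18 libraries correlated best with their own number. These correlations showed no pairing by replicate number but cannot exclude one, and the replicate block values above are given for completeness.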
